A study of Rattus norvegicus with 12 samples.

Results

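Oxidative phosphorylation genes were read in rat liver over the first day after partial hepatectomy (PH). A row of the deposited table was taken when its symbol began with NDUFA, NDUFB, NDUFC, NDUFS, NDUFV, UQCR, COX4 to COX8 or ATP5, or was SDHA, SDHB, SDHC or SDHD, and when its mean over the 12 columns was at least 1 RPKM (reads per kilobase of transcript, scaled to the mapped reads of the library). Of the 14692 genes listed, 82 matched by symbol and 76 passed the minimum. They comprised 38 genes of complex I, 4 of complex II, 7 of complex III, 11 of complex IV and 16 of complex V. The symbols also took 7 genes that encode no structural subunit: the complex I assembly factors NDUFAF1, NDUFAF3 and NDUFAF4, COX4NB, COX7A2L, ATP5S and ATP5SL. The other 69 were structural subunits. The 6 genes under the minimum were all of complex IV. COX4I2, COX6A2, COX6B2 and COX8B had means from 0.121667 to 0.241667 RPKM, and COX6C1 and COX8C were listed at 0 in every column.

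Complexes I to IV of the inner mitochondrial membrane pass electrons from NADH and succinate through ubiquinone and cytochrome c to oxygen, and complexes I, III and IV pump protons as they do so. Complex V, the ATP synthase, lets the protons flow back and makes ATP. Nearly all subunits are encoded in the nucleus and imported, a few core subunits are encoded by mitochondrial DNA, and hepatocytes, which are rich in mitochondria, draw on this pathway for gluconeogenesis, urea synthesis and growth after loss of liver mass.

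Each rat was an adult male Sprague Dawley with duodenal catheters and had either a sham operation or a biliary fistula, which drains bile out of the body, 24 h before PH. The columns are titled Cont, BA and BF, and livers were taken 0, 4, 12 and 24 h after PH, with 1 column for each of the 3 arms at each of the 4 times. Cont columns came from sham-operated rats, and BA and BF columns from rats with a fistula, with or without bile acid infused into the duodenum. The titles, the sample descriptions and the study's own use of the names disagree on whether BA or BF received the infusion, so both names are kept here as titled and no difference between them is assigned to bile acids. The authors merged 2 sequencing runs into each column. One run used a single rat and the other a pool of 3, so that 4 rats stand behind a value and no spread between rats can be computed. The livers were whole tissue, in which fewer cells of a type and less RNA per cell cannot be told apart.

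The number of reads per column is not known. RPKM summed to between 727435 and 785092 in 11 of the columns and to 982826 in BA at 4 h, where albumin alone was listed at 303637 RPKM against at most 99928 RPKM elsewhere. The median tested gene ranged from 8.68 RPKM in BA at 4 h to 14.25 RPKM in Cont at 24 h and was highest at 24 h in each arm. Hepatocyte markers were abundant throughout: of 8 genes, 6 were found and summed to between 72737 and 339150 RPKM. Pancreatic acinar genes stood out in BF at 12 h. There, all those found other than CELA1 and SPINK1 were at their highest, from 2.09 RPKM for CTRL to 84.7 RPKM for CTRB1, while none of them passed 1.15 RPKM in another column. With CELA1 and SPINK1 included, the 11 acinar genes found of 12 summed to between 514 and 1284 RPKM. Striated muscle markers (12 found of 13) summed to between 0.54 and 2.82 RPKM, macrophage markers (8 of 8) to between 298 and 502 RPKM, and red cell genes (3 of 5) to between 166 and 493 RPKM. CYP7A1, which encodes the rate-limiting enzyme of bile acid synthesis and is repressed by bile acids that return to the liver, was at 387, 13.8, 136 and 334 RPKM in BF at 0, 4, 12 and 24 h. It was at 54.9, 1.81, 3.17 and 68.8 RPKM in BA and at 60, 4.59, 8.53 and 57.3 RPKM in Cont, so BF was the highest arm at each time. Groups were not assigned from these values.

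Subunit transcripts of complexes IV and V were the most abundant and those of complex I the least. On the RPKM scale, which is per length, the median level of a gene was 73.5 RPKM in complex I, 150 RPKM in complex II, 173 RPKM in complex III, 264 RPKM in complex IV and 227 RPKM in complex V. ATP5B, which encodes the catalytic beta subunit of the ATP synthase, had the highest mean of all, 883 RPKM. The highest of the other complexes were COX7C in complex IV with 486 RPKM, NDUFB9 in complex I with 259 RPKM, UQCRH in complex III with 199 RPKM and SDHB, the iron-sulphur subunit of succinate dehydrogenase, with 171 RPKM. The lowest structural subunit was NDUFAB1, the mitochondrial acyl carrier protein, with 18.4 RPKM, and the lowest gene ATP5S, known as coupling factor B, with 2.60 RPKM. The plot of levels by complex shows the range of each gene over the columns. NDUFA10 and NDUFA10L1, at 26.4 and 22.0 RPKM, are close paralogs whose reads the authors' counting could have divided between them, and the same holds for ATP5G1, ATP5G2 and ATP5G3.

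**Figure D1:**
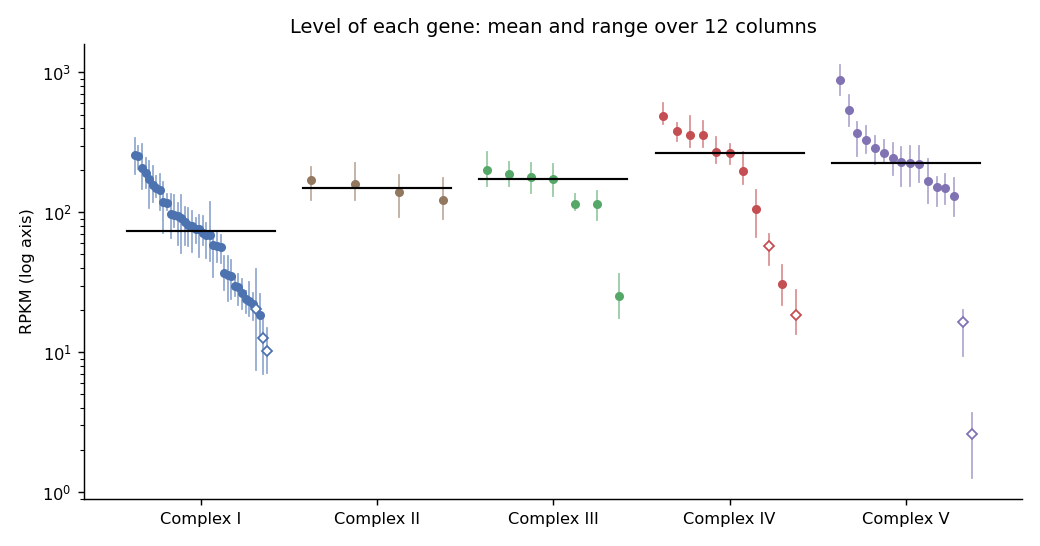
Mean RPKM over 12 columns (points, log axis) with the lowest and highest column (thin lines) for the 76 genes, ordered by level within complexes I to V. Filled circles are structural subunits, open diamonds the 7 other genes, and black bars the complex medians, from 73.5 RPKM in complex I to 264 RPKM in complex IV.

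For the complex IV subunits of which both forms were measured, the ubiquitous or liver form was well above the other tissue form, which lay under the minimum. COX4I1 ranged from 325 to 438 RPKM over the columns, and COX4I2 from 0.02 to 0.27 RPKM. COX6A1 lay between 295 and 451 RPKM, and its muscle counterpart COX6A2 between 0 and 0.41 RPKM. COX8A ranged from 159 to 268 RPKM and COX8B from 0 to 1.09 RPKM. COX7A2, the ubiquitous form of its subunit, was at 21.6 to 41.8 RPKM, and COX7A2L, which helps join complexes III and IV into supercomplexes, at 42.4 to 70.3 RPKM. NDUFA4, grouped with complex I by its symbol although it is now counted as a complex IV subunit, stood between 205 and 298 RPKM. COX6B2, the testis form, did not pass 0.38 RPKM. COX6B1, COX7A1 and NDUFA4L2 were not among the 82 symbols matched. None of the 26 symbols tried for genes of mitochondrial DNA was listed, so the subunits encoded there were not analysed either.

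The genes moved together from column to column. The SD of a gene over the 12 columns on the log2(RPKM + 1) scale had a median of 0.25, against 0.33 for all 8459 genes tested and 0.35 for the 2906 of them within the subunits' range of levels. Each gene was correlated across the 12 columns with the median of the other 75 genes. Pearson's r had a median of 0.88 and was at least 0.8 for 50 of the 76 genes, or 65.8%, against 16.2% of the 8383 other genes with the median of the 76. All of these share the same 12 libraries and their scale, so the values are descriptions. Closest to the common course was NDUFC2 (r = 0.97) and farthest NDUFAF4 (r = -0.034). Next from the bottom came NDUFA5 (r = 0.38), NDUFA1 (0.45), SDHA (0.49), ATP5G1 (0.49), NDUFA6 (0.57) and ATP5G3 (0.57). When every column was divided by its median tested gene, the median SD became 0.17 for the 76 genes and 0.29 for all genes tested.

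**Figure D2:**
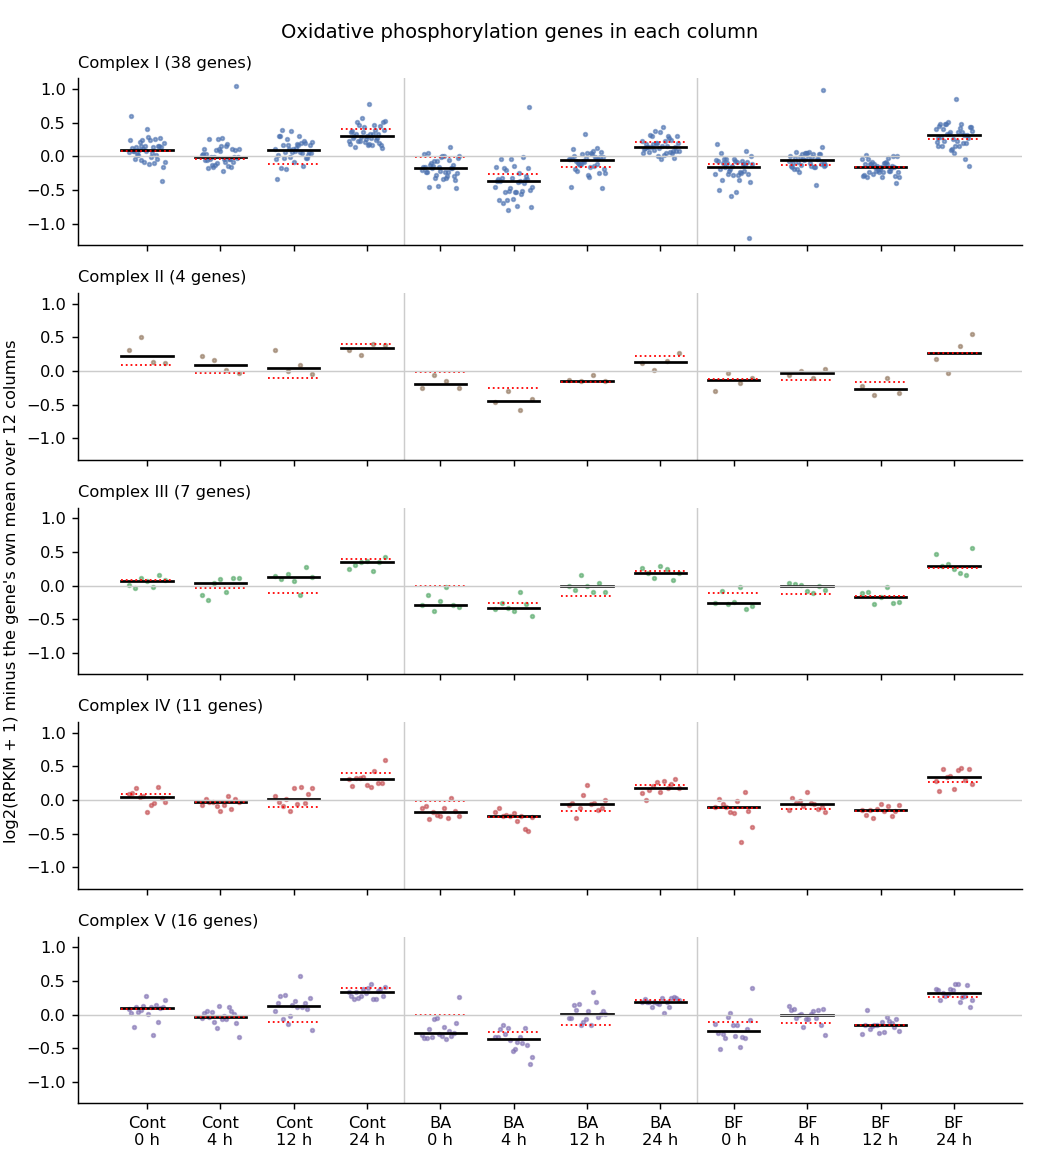
Each point is 1 gene's log2(RPKM + 1) in a column minus its own mean over the 12 columns, in panels for complexes I to V. Black bars are the medians of the complex and dotted red lines the median tested gene of the column on the same centred scale. All 5 complexes sit highest at 24 h in each arm and low in BA at 4 h, as does the median tested gene, and NDUFAF4 is the high point of complex I at 4 h.

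Whether the genes shifted with time was tested with limma on log2(RPKM + 1), in an additive fit of time and arm to all 8459 genes whose mean reached 1 RPKM. The 3 arms serve as replicates of a time, so that a p-value, adjusted by the Benjamini-Hochberg method over all genes, reads a shift shared by the arms against departures from additivity with 6 residual degrees of freedom, and not against the spread between rats. A gene was called at an adjusted p under 0.05. Because the median tested gene itself moved, by -0.20 at 4 h, -0.12 at 12 h and 0.21 at 24 h against 0 h on the log2 scale, each count is also given after every column was rescaled to the same median tested gene, a scale called rescaled here.

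At 24 h the oxidative phosphorylation genes were higher than at 0 h on the deposited scale, and much of that difference was shared by the median tested gene. The median fitted log2 difference of the 76 genes was 0.38, against 0.21 for all genes tested. ATP5B was at 926, 704 and 788 RPKM at 0 h in Cont, BA and BF and at 1102, 992 and 1135 RPKM at 24 h, so the times did not overlap (log2 difference 0.42 ± 0.15 SE, adjusted p = 0.049). COX5A, a nuclear-encoded subunit of cytochrome c oxidase, rose most in complex IV, from 99.8, 85.2 and 66.6 RPKM to 139, 116 and 144 RPKM (0.67 ± 0.13, adjusted p = 0.0056). UQCRB, a ubiquinone-binding subunit of complex III, went from 26.1, 19.4 and 19.6 RPKM to 33.2, 28.0 and 36.5 RPKM (0.57 ± 0.13, adjusted p = 0.0099). All values of each of these genes at 24 h were above all values at 0 h on the deposited scale, but none of them was called on the rescaled columns. The share of all tested genes whose times separate in this way is not given, here or below. In all, 44 of the 76 genes were called higher and 0 lower, where 30.6% of all tested genes were called higher and 5.54% lower. The calls higher were 18 of 38 in complex I, 2 of 4 in complex II, 6 of 7 in complex III, 8 of 11 in complex IV and 10 of 16 in complex V. These counts include NDUFAF4 in complex I and COX4NB in complex IV, which encode no structural subunit. Of the 69 structural subunits 42 were called higher. Without adjustment, 58 of the 76 genes and 4024 of all 8459 had a p under 0.05. On the rescaled columns the median difference was 0.047 against -0.076 for all genes. There, 4 genes were called higher (NDUFA12, NDUFAB1, NDUFS4 and COX4NB, the last no structural subunit) and 3 lower (NDUFA1, NDUFA6 and SDHA). Of all tested genes 10.3% and 17.1% were called on that scale. The 44 calls on the deposited scale fell to 8 without BF at 0 h, 9 without BF at 24 h, 15 without BA at 24 h, 23 without Cont or BA at 0 h and 27 without Cont at 24 h, each of which left fewer degrees of freedom.

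Between 12 and 24 h the genes were also higher on the deposited scale, by no more than the median tested gene. The median difference was 0.32 for the 76 genes and 0.33 for all genes tested. Of the 76 genes, 36 were called higher and 0 lower (49, and 4640 of all 8459 genes, at an unadjusted p under 0.05), where 43.6% and 1.80% of all tested genes were. After rescaling, the median difference was -0.15 against -0.084 for all genes, 0 genes were called higher and 6 lower (ATP5G1, ATP5G3, COX5B, NDUFA10, NDUFA5 and NDUFA7), where 7.47% and 11.0% of all tested genes were. By an unadjusted p under 0.05, 16 of the 76 genes and 2859 of all 8459 passed in either direction. Without BF at 12 h, the column with the acinar genes, 9 genes were called higher on the deposited scale. The count was 10 without BF at 24 h, 13 without Cont at 12 h, 16 without BA at 24 h and 18 without Cont at 24 h.

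At 4 h few of the genes were called against 0 h. On the deposited scale their median was nearer to 0 than that of all genes, and on the rescaled columns it lay on the other side of 0. The median difference was -0.049 on the deposited scale, against -0.20 for all genes, and 0.087 against -0.082 on the rescaled columns. On the deposited scale 3 genes were called higher (NDUFAF4, NDUFA5 and ATP5G3) and 5 lower (ATP5S, NDUFA6, NDUFB4, COX7A2L and ATP5G2), where 12.9% and 32.4% of all tested genes were. On the rescaled columns 7 were called higher and 1 lower, where 18.1% and 25.1% of all tested genes were. The gene called lower on both was ATP5S. The 3 calls higher became 1 without BA at 0 h, BF at 0 h or BF at 4 h. The 5 calls lower became 1 without Cont at 0 h or without BA at 4 h, the column with the high albumin value, 2 without BA at 0 h and 3 without BF at 0 h.

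At 12 h the median difference from 0 h was 0.038 on the deposited scale, against -0.12 for all genes, and 0.18 against 0.005 on the rescaled columns. On the deposited scale 4 genes were called higher (ATP5G1, ATP5G3, NDUFA5 and NDUFAB1) and 3 lower (NDUFA6, NDUFA1 and ATP5S), where 9.03% and 22.5% of all tested genes were. After rescaling, 17 were called higher, of which 9 were in complex I, 3 in complex IV and 5 in complex V. These include NDUFAF4 in complex I and COX4NB in complex IV, which encode no structural subunit. Only NDUFA6 was called lower. Of all tested genes 16.1% and 16.7% were called on that scale. The 4 calls higher became 1 without Cont at 12 h or BF at 0 h and 2 without BA at 12 h. The 3 calls lower became 1 without Cont at 0 h, Cont at 12 h, BA at 0 h or BF at 12 h.

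**Figure D3:**
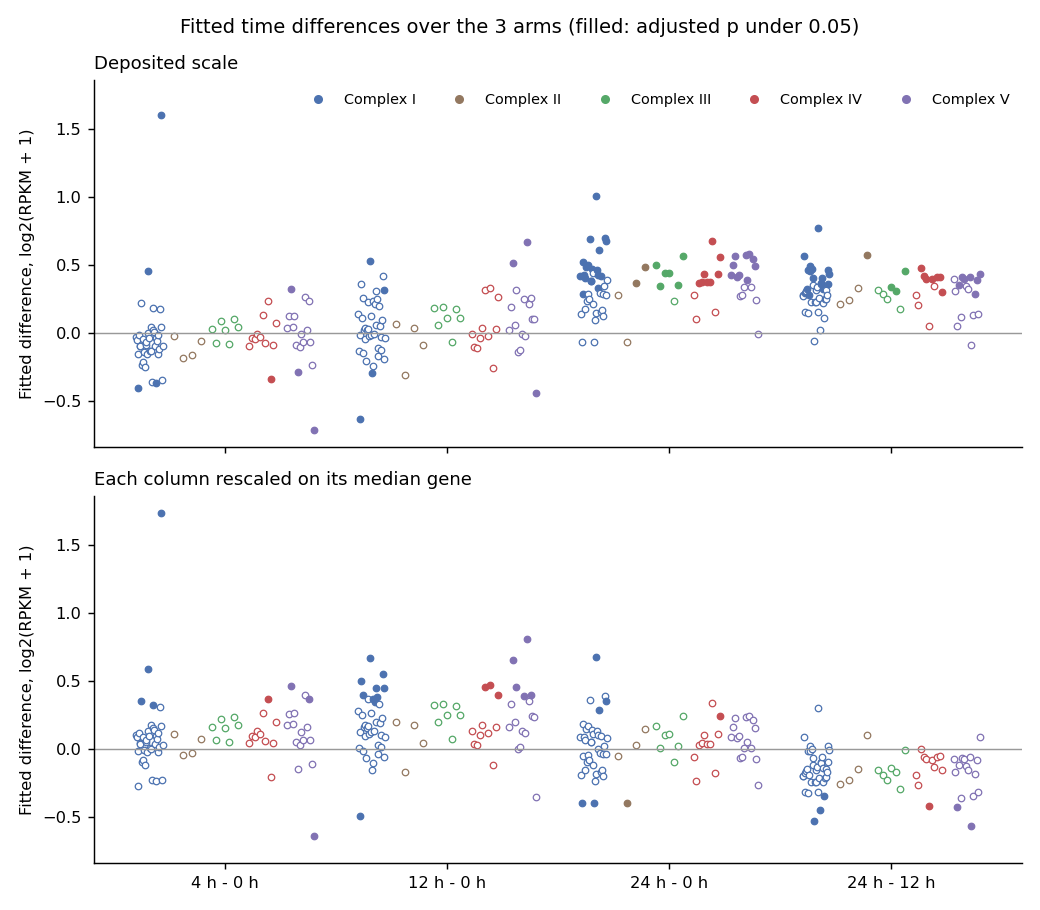
Fitted log2(RPKM + 1) differences between times for each of the 76 genes, by complex, on the deposited columns (top) and on the rescaled columns (bottom). Filled points had an adjusted p under 0.05. On the deposited scale 44 genes are filled above 0 at 24 h against 0 h, and on the rescaled scale 4 above and 3 below, while the NDUFAF4 point stays at 1.60 and 1.74 at 4 h.

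A few genes were called in the same direction on the deposited columns, the rescaled columns and columns rescaled to the median of the 76 genes themselves, the last scale being chosen after the effect of the first rescaling was seen. These were NDUFAF4, NDUFA5, ATP5G3 and ATP5S at 4 h, ATP5G1, ATP5G3, NDUFA5, NDUFAB1 and NDUFA6 at 12 h, and NDUFA12 and NDUFAB1 at 24 h. NDUFAB1, like NDUFAF1, NDUFAF3 and NDUFA10 elsewhere, was named after its values were seen.

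NDUFAF4, an assembly factor that helps build the arm of complex I reaching into the matrix, had a transient peak at 4 h. In Cont it was at 14.1, 39.2, 19.5 and 20.3 RPKM at 0, 4, 12 and 24 h. In BA it stood at 13.1, 31.5, 13.1 and 19.5 RPKM, and in BF at 7.45, 37.5, 13.9 and 16.6 RPKM. All values at 4 h lay above every other value of the gene. The fitted difference at 4 h was 1.60 ± 0.17 on the log2 scale, or 3.04-fold (adjusted p = 0.00041), and 1.74 on the rescaled columns. It stayed called when any 1 of the 12 columns was left out, with differences from 1.38 to 1.76. The call at 24 h (0.70 ± 0.17, adjusted p = 0.014) was not made on the rescaled columns (0.39, adjusted p = 0.10), and it was lost without BF at 0 h (0.48), BF at 24 h (0.69) or BA at 24 h (0.64). The other complex I assembly factors taken by the symbols showed no such peak, as NDUFAF1 differed by -0.35 ± 0.14 (adjusted p = 0.068) and NDUFAF3 by -0.09 ± 0.14 (adjusted p = 0.61) at 4 h.

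NDUFA5, a subunit of the peripheral arm of complex I, was higher at 4 and 12 h, and at 24 h on the deposited scale only. Its values in Cont were 74.6, 94.3, 102 and 91.9 RPKM at 0, 4, 12 and 24 h. Its values in BA were 57.7, 76.7, 99.1 and 78.7 RPKM, and in BF 52.3, 81.5, 68.0 and 84.6 RPKM. Every value at 4 h was above every value at 0 h, whereas the value of BF at 12 h, 68.0 RPKM, fell within the range at 0 h. The differences were 0.46 ± 0.13 at 4 h (adjusted p = 0.022) and 0.53 ± 0.13 at 12 h (adjusted p = 0.017). At 24 h every value was above every value at 0 h, with a difference of 0.47 ± 0.13 (adjusted p = 0.023). That call was not made on the rescaled columns (0.14, adjusted p = 0.43) and was lost in 4 of the 12 fits that left out a column. At 4 h the call was lost without BA at 0 h, BF at 0 h or BF at 4 h, and at 12 h without Cont at 12 h, BA at 0 h, BA at 12 h or BF at 0 h, with adjusted p up to 0.078 and 0.067.

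NDUFA6, an accessory subunit of the LYR family in the same complex, took the opposite course and fell to 12 h. In Cont it went from 306 to 216, 160 and 259 RPKM at 0, 4, 12 and 24 h. In BA it was at 206, 157, 147 and 217 RPKM, and in BF at 230, 182, 165 and 225 RPKM. No value at 12 h reached the lowest at 0 h. The difference at 12 h was -0.63 ± 0.12 (adjusted p = 0.0046) and -0.49 on the rescaled columns, and it was called when any column was left out. At 4 h it was -0.41 ± 0.12 (adjusted p = 0.019), but it was not called on the rescaled columns (-0.27, adjusted p = 0.071), without Cont at 0 h (-0.31) or without BA at 4 h (-0.37). At 24 h NDUFA6 was near its deposited level of 0 h (-0.06 ± 0.12, adjusted p = 0.69) and lower on the rescaled scale (-0.40, adjusted p = 0.026). NDUFA1, a small membrane subunit of complex I, and SDHA, the flavoprotein of succinate dehydrogenase, shared this pattern at 24 h. For NDUFA1 the difference was -0.07 ± 0.10 as deposited (adjusted p = 0.62) and -0.40 rescaled (adjusted p = 0.013), and for SDHA -0.07 ± 0.12 (adjusted p = 0.70) and -0.40 (adjusted p = 0.032).

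NDUFA12, a subunit of the peripheral arm whose mutation impairs complex I, had the largest difference of the 76 genes at 24 h. It was at 60.8, 56.6, 71.4 and 113 RPKM at 0, 4, 12 and 24 h in Cont. The values were 52.0, 45.2, 58.9 and 88.7 RPKM in BA and 45.2, 61.5, 55.5 and 119 RPKM in BF. The 3 values at 24 h were the highest of the gene. The difference from 0 h was 1.01 ± 0.14, or 2.01-fold (adjusted p = 0.0013), and 0.67 on the rescaled columns (adjusted p = 0.0058), and it was called when any column was left out. NDUFAB1 rose by 0.68 ± 0.11 (adjusted p = 0.0021) and by 0.36 on the rescaled columns (adjusted p = 0.015).

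Complex II has no subunit from mitochondrial DNA and is also an enzyme of the citric acid cycle. Of its 4 genes, SDHC and SDHD, the membrane anchors, were called higher at 24 h on the deposited scale (0.36 ± 0.12, adjusted p = 0.044, and 0.48 ± 0.13, adjusted p = 0.019). SDHB, at 209, 141 and 137 RPKM at 0 h and 209, 183 and 190 RPKM at 24 h in Cont, BA and BF, was not (0.28 ± 0.13, adjusted p = 0.13). The values of SDHB in Cont were above those of both other arms at every time. After rescaling, SDHA was the only one of the 4 that was called, and lower.

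In complex III, the core proteins UQCRC1 and UQCRC2 and the hinge protein UQCRH were called higher at 24 h on the deposited scale, by 0.36 ± 0.12 (adjusted p = 0.046), 0.44 ± 0.15 (adjusted p = 0.046) and 0.50 ± 0.13 (adjusted p = 0.016). UQCRQ, which varied least of this complex, was not (0.24 ± 0.09, adjusted p = 0.058). No gene of complex III was called at any time on the rescaled columns. CYC1, the cytochrome c1 subunit, whose symbol the selection does not take, rose by 0.83 ± 0.13 at 24 h (adjusted p = 0.0023) and was called on the rescaled columns too (0.50, adjusted p = 0.019). CYCS, the mobile carrier cytochrome c, rose by 0.84 ± 0.24 (adjusted p = 0.026) but was not called on the rescaled columns (0.53, adjusted p = 0.12).

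In complex IV, COX4I1, the largest nuclear-encoded subunit, had the lowest difference at 24 h (0.10 ± 0.11, adjusted p = 0.48) and an SD over the columns of only 0.12. COX7C differed by 0.28 ± 0.10 (adjusted p = 0.063). COX6A1, COX7A2 and COX8A were called higher on the deposited scale, by 0.38, 0.44 and 0.37 (adjusted p = 0.024, 0.022 and 0.027), and none of these was called after rescaling (0.04, 0.11 and 0.04). COX7A2L was lower at 4 h, with 65.4, 58.4 and 61.9 RPKM at 0 h against 52.2, 42.4 and 52.2 RPKM at 4 h in Cont, BA and BF. The times did not overlap (-0.34 ± 0.10, adjusted p = 0.023), yet the call was lost on the rescaled columns (-0.20, adjusted p = 0.12) and without Cont, BA or BF at 0 h or BA at 4 h (-0.26 without the last). COX4NB, now known as EMC8, a subunit of a membrane protein insertase of the endoplasmic reticulum, is no subunit of complex IV. It rose by 0.56 ± 0.09 at 24 h (adjusted p = 0.0025) and by 0.24 on the rescaled columns (adjusted p = 0.047).

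In complex V the 3 genes for subunit c had different calls. ATP5G1, ATP5G2 and ATP5G3 encode different import signals but the same mature protein, which forms the rotating ring of the ATP synthase. ATP5G1 was at 132, 155, 242 and 192 RPKM at 0, 4, 12 and 24 h in Cont, at 127, 129, 206 and 185 RPKM in BA and at 117, 169, 159 and 185 RPKM in BF. ATP5G3 was at 319, 376, 439 and 425 RPKM in Cont, at 283, 311, 399 and 410 RPKM in BA and at 253, 383, 381 and 423 RPKM in BF. For both, every value at 12 h and 24 h was above every value at 0 h. ATP5G2 was at 263, 210, 238 and 313 RPKM in Cont, at 232, 184, 223 and 272 RPKM in BA and at 244, 212, 217 and 311 RPKM in BF, and all of its values at 4 h were below those at 0 h.

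At 12 h ATP5G1 was higher by 0.67 ± 0.15 (adjusted p = 0.010) and ATP5G3 by 0.51 ± 0.12 (adjusted p = 0.012), while ATP5G2 differed by -0.12 ± 0.10 (adjusted p = 0.37). The rescaled differences were 0.81, 0.66 and 0.02. The difference between the genes was itself not tested. ATP5G1 lost its call without Cont at 12 h (0.56, adjusted p = 0.054) and ATP5G3 without BF at 0 h (0.43, adjusted p = 0.054). The calls at 4 h of ATP5G3 (0.32 ± 0.12, adjusted p = 0.049) and ATP5G2 (-0.28 ± 0.10, adjusted p = 0.039) were close to the threshold and were lost in 11 and 9 of the 12 fits that left out a column. ATP5C1, the gamma subunit of the central stalk, was not called at 24 h (0.34 ± 0.15, adjusted p = 0.097).

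ATP5S was at 3.09, 1.80, 2.01 and 3.68 RPKM at 0, 4, 12 and 24 h in Cont, at 3.21, 1.26, 2.52 and 3.08 RPKM in BA and at 3.61, 1.84, 1.97 and 3.08 RPKM in BF. All values at 4 h were below all values at 0 and 24 h. The fitted difference at 4 h was -0.71 ± 0.13 (adjusted p = 0.0027), and -0.64 on the rescaled columns (adjusted p = 0.0040). It was called when any column was left out. At a level this low the added 1 RPKM understates the change. The call at 12 h (-0.44 ± 0.13, adjusted p = 0.030) was lost on the rescaled columns (-0.35, adjusted p = 0.058) and without Cont at 0 h, BA at 0 h, BF at 0 h, Cont at 12 h or BF at 12 h (adjusted p up to 0.13).

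**Figure D4:**
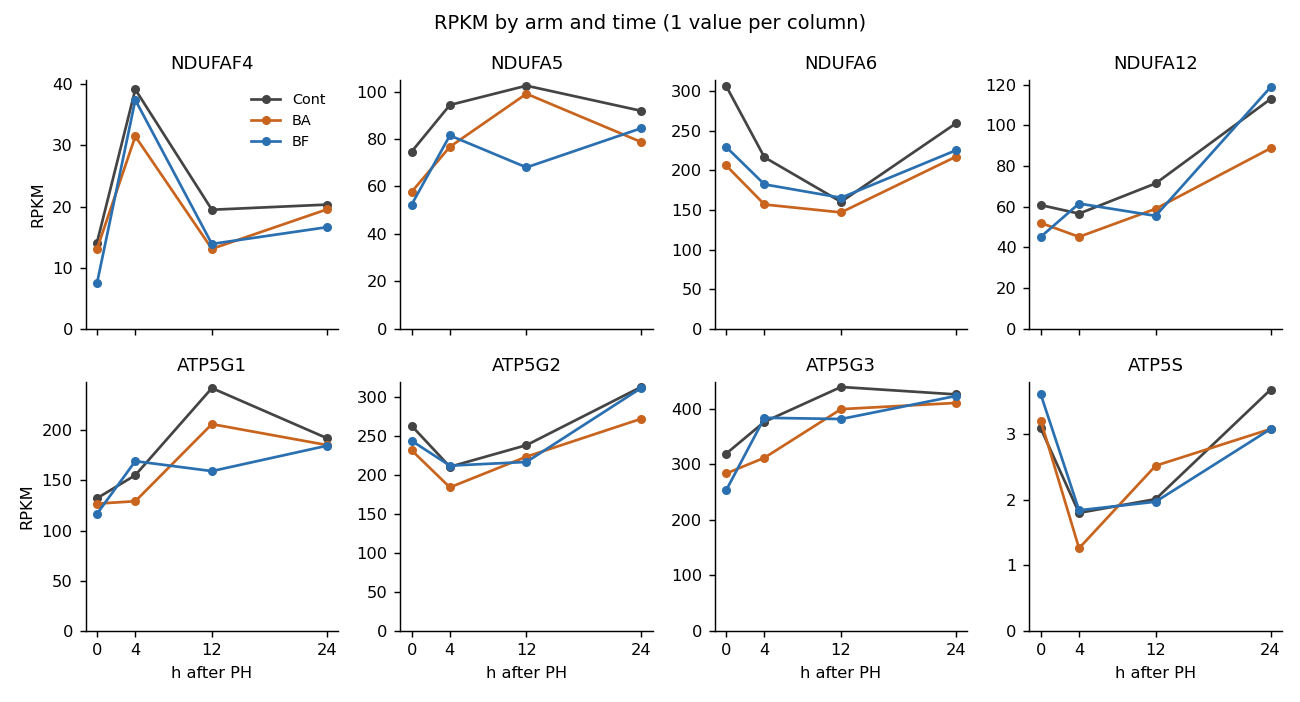
RPKM of 8 genes at 0, 4, 12 and 24 h after PH, with 1 value per arm and time (Cont grey, BA orange, BF blue), each panel with its own axis from 0. NDUFAF4 peaks at 4 h in all arms (31.5 to 39.2 RPKM), NDUFA6 is lowest at 12 h, NDUFA12 highest at 24 h, ATP5G1 and ATP5G3 end above 0 h, and ATP5G2 and ATP5S are lowest at 4 h.

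The sequences around the start sites of NDUFAF4 and of the 3 subunit c genes are shown because NDUFAF4 was the gene least like the others and the subunit c genes encode 1 mature protein yet had different calls. They are from RefSeq on the rat assembly GRCr8, which is not the build of the deposited table, and run from 250 bases before to 50 bases after the annotated start, 5′ to 3′ on the gene's strand. RefSeq now names the last 3 Atp5mc1, Atp5mc2 and Atp5mc3. Capitals mark matches on either strand to 4 short motifs that are known from respiratory gene promoters or bound by MYC: the NRF1 core GCATGCGC, the ETS core CCGGAAG of GABP sites, the YY1 core AAGATGGC and the E-box CACGTG, which reads the same on both strands. NDUFAF4 lies at chr5:43401545-43401844 on the plus strand, and ATP5G1 at chr10:81523296-81523595, ATP5G2 at chr7:135678169-135678468 and ATP5G3 at chr3:79220615-79220914 on the minus strand.
NDUFAF4: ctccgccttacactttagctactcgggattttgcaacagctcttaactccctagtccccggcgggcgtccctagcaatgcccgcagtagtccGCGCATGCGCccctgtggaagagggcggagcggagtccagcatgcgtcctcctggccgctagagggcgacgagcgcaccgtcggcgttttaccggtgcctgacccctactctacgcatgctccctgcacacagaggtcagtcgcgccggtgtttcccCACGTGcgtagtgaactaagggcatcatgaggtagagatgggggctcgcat
ATP5G1: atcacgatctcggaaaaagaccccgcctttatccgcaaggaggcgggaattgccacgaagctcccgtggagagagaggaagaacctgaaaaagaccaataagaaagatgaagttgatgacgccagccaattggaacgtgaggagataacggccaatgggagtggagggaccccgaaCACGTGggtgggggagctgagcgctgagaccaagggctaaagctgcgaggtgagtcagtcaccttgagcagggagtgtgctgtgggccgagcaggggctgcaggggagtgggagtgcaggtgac
ATP5G2: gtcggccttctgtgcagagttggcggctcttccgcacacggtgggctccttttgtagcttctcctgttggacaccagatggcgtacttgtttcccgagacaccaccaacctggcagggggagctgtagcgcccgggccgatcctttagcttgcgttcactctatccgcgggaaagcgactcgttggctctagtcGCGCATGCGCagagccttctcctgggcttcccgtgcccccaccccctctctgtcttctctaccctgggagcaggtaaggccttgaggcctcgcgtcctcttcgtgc
ATP5G3: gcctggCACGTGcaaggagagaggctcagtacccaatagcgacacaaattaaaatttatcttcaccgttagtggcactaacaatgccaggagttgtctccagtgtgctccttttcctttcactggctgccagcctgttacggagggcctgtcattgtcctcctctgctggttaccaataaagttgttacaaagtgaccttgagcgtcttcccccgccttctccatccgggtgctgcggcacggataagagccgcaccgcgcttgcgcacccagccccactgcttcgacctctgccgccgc
The capitals in NDUFAF4 are an NRF1 match, read on both strands so that the matches overlap, and an E-box whose first letter is letter 250. ATP5G2 holds the same overlapping NRF1 match, and ATP5G1 and ATP5G3 each hold an E-box, at letters 177 and 7. Of the 76 genes, 66 had a single promoter in the RefSeq table. The NRF1 core was in 9 of these (13.6%), against 2.61% of all 27457 promoters of the same length. The ETS core was in 21 (31.8%, against 9.14%), the YY1 core in 13 (19.7%, against 3.41%) and the E-box in 7 (10.6%, against 6.59%). The 27457 promoters include those of genes not tested here, and the shares were not compared with promoters of genes expressed at a like level. A match describes the letters only, and binding was not measured.

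The list of regulators of these genes held members called in both directions at 4 h. Of 18 regulators listed, 13 were tested, of which 5 were called higher and 2 lower at 4 h, and 6 higher and 0 lower at 24 h. Of all tested genes 12.9% and 32.4% were called at 4 h and 30.6% and 5.54% at 24 h. PPARGC1A, the coactivator PGC-1alpha, was at 0.87, 0.74 and 1.42 RPKM at 0 h and 4.35, 5.31 and 10.4 RPKM at 4 h in Cont, BA and BF, with no overlap between the times. Its difference was 1.87 on the log2(RPKM + 1) scale (adjusted p = 0.00073) and 1.99 rescaled. Its values at 0 h were near 1 RPKM, a level at which the added 1 RPKM understates the change. Its relative PPRC1 rose by 1.56 (adjusted p = 0.00052) and the growth regulator MYC by 1.79 (adjusted p = 0.0029), both named after their values were seen. These were among the highest of the list, and the 2 genes called lower are not named here. Over the 13 regulators tested the difference at 4 h ran from -0.92 to 1.87, with a median of 0.085, 9 above 0 and 4 below. NRF1, a factor that binds many respiratory gene promoters, was not called at 4 h on the deposited scale (0.19, adjusted p = 0.14) but was on the rescaled one (0.30, adjusted p = 0.015), and was higher at 24 h by 0.54 (adjusted p = 0.0035) and by 0.26 rescaled (adjusted p = 0.040). GABPA, the DNA-binding subunit of the factor once called NRF-2, and TFAM, which packages and transcribes mitochondrial DNA, were higher at 24 h by 0.32 and 0.35 (adjusted p = 0.020 and 0.014) and not called after rescaling (0.02 for each). ESRRA was not analysed here.

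Other gene lists of mitochondrial function were read in the same fit for 24 h against 0 h, where 30.6% of all tested genes were called higher and 5.54% lower. Of 19 assembly factors tested of 48 listed, 3 of them counted above, 6 were called higher and 0 lower, from COX16 (-0.05) through TMEM126B (0.28) to NDUFAF4 (0.70), and at 4 h 2 were higher and 5 lower (12.9% and 32.4% of all tested genes). Citric acid cycle genes were called higher in 6 of 14, with DLST at 0.69 and SUCLG2 at -0.22. Of 11 electron carriers, exchangers and pores 7 were called higher. SLC25A3, which imports phosphate for ATP synthesis, rose by 0.93 (adjusted p = 0.0013) and by 0.60 rescaled (adjusted p = 0.0086), SLC25A5, an ADP/ATP exchanger, by 0.55, and ETFB differed by 0.13 (adjusted p = 0.52). Import machinery genes were called higher in 13 of 15, with TIMM8A1 at 1.18, TIMM17B at 0.59 and TOMM7 at 0.23, and the last was not called. Mitochondrial ribosomal genes were called higher in 45 of 67 (MRPL12 at 1.07, MRPS18A at 0.47 and MRPL2 at -0.04) and cytosolic ribosomal genes in 48 of 62 (RPL30 at 1.90 without a call, RPS7 at 0.72 and RPS6KB1, a kinase taken by its symbol, at -0.03). None of these lists had a gene called lower. Of 15 glycolytic genes 6 were called higher and 1 lower, with PGK1 at 1.02 and PFKL at 0.34. On the rescaled columns the calls higher and lower were 0 and 1 for assembly factors, 0 and 1 for the citric acid cycle, 3 and 0 for carriers, 5 and 0 for import, 11 and 0 for mitochondrial ribosomes, 28 and 2 for cytosolic ribosomes, 3 and 2 for regulators and 2 and 1 for glycolysis, where 10.3% and 17.1% of all tested genes were called. The cytosolic ribosomal list was already higher at 12 h, with 44 of 62 called, where 9.03% of all tested genes were.

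No gene of the 76 was called between the arms. The arms were compared over the 4 times in the same limma fit. BF against Cont had a median log2 difference of -0.15 (all genes -0.11), with 0 genes called at an adjusted p under 0.05, where 0.804% of all tested genes were called. At an unadjusted p under 0.05, 11 of the 76 genes and 1852 of all 8459 passed. BA against Cont had a median of -0.24 (all genes -0.14), with 0 called, where 0.0709% of all tested genes were called, and with 34 of the 76 genes and 1919 of all 8459 at an unadjusted p under 0.05. BF against BA had a median of 0.087 (all genes 0.030), with 0 called, where 0.0118% of all tested genes were called, and with 1 of the 76 genes and 661 of all 8459 at an unadjusted p under 0.05. After rescaling, the medians were -0.019, -0.096 and 0.068 (all genes -0.00061, -0.0063 and 0.014). An unadjusted p under 0.05 was then reached by 3, 3 and 1 of the 76 genes, and by 1258, 1072 and 733 of all 8459. The first pair of comparisons shares the Cont columns.

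In BA against Cont, SDHB differed by -0.47 ± 0.12 (adjusted p = 0.099) and ATP5C1 by -0.40 ± 0.13 (adjusted p = 0.14). In BF against Cont, NDUFAF4 differed by -0.41 ± 0.15 (adjusted p = 0.17), SDHB by -0.39 ± 0.12 (adjusted p = 0.13), UQCRC1 by -0.33 ± 0.11 (adjusted p = 0.14) and COX4NB by -0.28 ± 0.08 (adjusted p = 0.12).

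Single columns, which have no replicate check, showed where the arms lay at each time. At 0 h the median log2 difference of the 76 genes from Cont was -0.28 in BF (all genes -0.18), with 72 genes lower, and -0.28 in BA (all genes -0.097), with 71 lower. Of all 8459 genes tested, 6251 were lower in BF and 5477 in BA. At 4 h it was -0.053 in BF and -0.35 in BA (all genes -0.067 and -0.22). The corresponding values were -0.27 and -0.14 at 12 h (all genes -0.069 and -0.057), and -0.013 and -0.15 at 24 h (all genes -0.11 and -0.17). The genes made up 1.63% of the RPKM sum in Cont, 1.28% in BA and 1.29% in BF at 0 h. At 24 h the shares were 1.94%, 1.68% and 1.93%. These sums rest heavily on the 10 most abundant genes, which held from 29.4% (Cont at 24 h) to 53.2% (BA at 4 h). The median of the 76 genes was 10.83, 10.03 and 11.52 times the median tested gene in Cont, BA and BF at 0 h. At 24 h these ratios were 10.54, 11.28 and 11.54, so lower in Cont, higher in BA and nearly the same in BF. By this ratio BF was the highest arm at 0 h, unlike by its share. From 0 to 24 h the median difference was 0.22 in Cont, 0.39 in BA and 0.52 in BF, against 0.21, 0.15 and 0.28 for all genes, with 70, 73 and 73 of the 76 genes higher. Of all 8459 genes tested, 5803, 5863 and 6132 were higher. Whether these changes differed between the arms was not tested.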

How the data were processed

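Whole-liver poly(A) RNA of 12 groups of rats was sequenced. The authors deposited RPKM values in 1 table, averaged by them over 2 runs per column. The submitters' processing notes name CASAVA, Bowtie 0.12.2 and the builds mm8 and rn4, without roles, and the annotation and the weight of each run in the average are not given in the sources used here. Depth is unknown, and its precision could not be stated. Samples were grouped by title. Of 14692 genes, 1 had no value, 12388 were above 0 in at least 1 column and 8459, those whose mean reached 1 RPKM, were tested.

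Time and arm were fitted additively to log2(RPKM + 1) with limma 3.58.1 in R 4.3.3 (empirical Bayes with an intensity trend, Benjamini-Hochberg over all genes). The fit was tested on simulated data with independent noise and no shift of whole columns, so that test does not address the scale of the columns. Alternatives were other pseudocounts, filters, scalings, fits with 1 term, no trend, structural subunits only and leaving out each column. Named genes were, per complex, the most abundant, the highest and lowest at each time and the largest between arms, with complex II, tissue isoforms and regulators. A few genes that these rules name are not reported here. Members and lists were chosen with earlier results of these data known.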

Additional observations from a re-analysis of the deposited data

Results flagged for a closer look

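At 4 h against 0 h, single columns on the deposited scale moved in opposite directions between the arms, and this difference was not tested. The median log2 difference of the 76 genes was -0.086 in Cont, -0.15 in BA and 0.13 in BF. It was -0.073, -0.19 and 0.084 for complex I, -0.14, -0.22 and 0.10 for complex II, -0.066, -0.085 and 0.24 for complex III, -0.075, -0.032 and 0.061 for complex IV, and -0.11, -0.15 and 0.24 for complex V, each in the order Cont, BA and BF. The median tested gene moved by -0.19, -0.32 and -0.072 in the same columns, and the median of the 76 genes lay above it in each arm. BA at 4 h holds the high albumin value, whose part in the difference between the arms was not tested.

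At 12 h against 0 h the signs again differed, also untested. The median was -0.0096 in Cont, 0.14 in BA and -0.0046 in BF for the 76 genes. In the same order it was -0.038, 0.13 and -0.011 for complex I, -0.11, 0.096 and -0.072 for complex II, -0.030, 0.053 and -0.039 for complex IV, and -0.0081, 0.28 and 0.055 for complex V. The median tested gene moved by -0.16, -0.13 and -0.054, and the median of the 76 genes lay above it in each arm. BF at 12 h is the column with the pancreatic acinar genes, whose part was not tested.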

How the results depend on the processing

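The scale of the columns decided most calls. With columns rescaled on all genes, the members called higher and lower were 7 and 1 at 4 h against 0 h, 17 and 1 at 12 h against 0 h, 4 and 3 at 24 h against 0 h, and 0 and 6 at 24 h against 12 h. With columns rescaled on the members, chosen after seeing the data, they were 7 and 3 at 4 h, 2 and 3 at 24 h against 0 h, and 0 and 3 at 24 h against 12 h. On that scale 15.2% of all tested genes were called higher and 26.6% lower at 4 h. At 24 h the shares were 8.19% and 18.7% against 0 h, and 7.74% and 5.56% against 12 h. A fit with time alone called 1 higher and 2 lower at 4 h, 2 higher at 12 h, 23 higher at 24 h against 0 h and 19 higher at 24 h against 12 h. The share of all tested genes called in that fit is not given here. Among structural subunits only, 3 were lower at 4 h. Leaving out 1 column gave from 1 to 3 higher and 1 to 7 lower at 4 h, 1 to 5 higher and 1 to 3 lower at 12 h, 8 to 48 higher at 24 h against 0 h, and 9 to 40 higher at 24 h against 12 h. The arm comparisons kept 0 calls under every alternative run. On columns rescaled on all genes, 69 of the 76 differences at 24 h against 12 h were below 0, against 2 as deposited. Of all 8459 genes tested, 5193 were below 0 there and 1200 as deposited. Among the genes named by rule and called as deposited, those that turned negative were ATP5G2 (-0.074), COX4NB (-0.16), COX6A1 (-0.059), COX7A2 (-0.052), COX7A2L (-0.058), COX8A (-0.077), UQCRB (-0.0046) and UQCRQ (-0.17). On columns rescaled on the members, 50 were below 0 at 24 h against 12 h and 37 at 24 h against 0 h (4 as deposited). Of all 8459 genes tested, 4201 and 5352 were below 0 in these comparisons (2385 as deposited in the second). Among the same named genes COX4NB (-0.058) and UQCRQ (-0.065) turned negative, as did COX8A (-0.0027), SDHC (-0.011) and UQCRC1 (-0.019) at 24 h against 0 h. Beyond the construction of each alternative the cause was not tested. With 1 value per arm and time the spread between rats is unknown, and so is what depth limits. No paired analysis was possible because each group holds 1 column, so that no replicate number could be a block beside the arm and time already in the fit.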
